A study of Mus musculus with 2 samples.

Results

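The 39 genes described here are the 19 mouse Wnt ligands and 20 genes that make, receive or carry the canonical Wnt signal: Wls and Porcn, the co-receptors Lrp5 and Lrp6, the scaffolds and kinase of the beta-catenin destruction complex (Axin1, Axin2, Apc and Gsk3b), Dvl1, Dvl2 and Dvl3, beta-catenin itself (Ctnnb1), the TCF genes Lef1, Tcf7, Tcf7l1 and Tcf7l2, and the secreted modulators or their receptor Dkk1, Sfrp1, Rspo1 and Lgr5. Frizzled receptors were not members. The 39 genes were picked by name from 21887 protein-coding genes, with earlier results of these data known. All 39 were found in the RefSeq gene table. A DPPA2 peak was assigned to a member when its summit lay within 1 kb of either end of the gene (a gene-end peak), further inside the gene, or outside all protein-coding genes with the member as the nearest. By this rule 11 of 7043 peaks of untreated cells and 57 of 16229 peaks of adriamycin-treated cells belonged to members.

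Wnt proteins are lipid-modified secreted ligands. PORCN adds the lipid and WLS carries the ligand to the cell surface, where it binds a Frizzled receptor together with LRP5 or LRP6. Without a ligand, AXIN, APC and GSK3B mark beta-catenin for destruction; with a ligand, Dishevelled proteins help to disable that complex, and beta-catenin enters the nucleus and acts through TCF and LEF factors. In mouse embryonic stem cells this pathway supports self-renewal, with TCF7L1 as a repressor of pluripotency genes. DPPA2 is a chromatin-bound factor, found in early embryos and germ cells, that pairs with DPPA4 and is known to occupy CpG-rich promoters, among them those of developmental genes.

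The sites of DPPA2 were measured by ChIP-seq in the mouse embryonic stem cell line R1/E. The series describes the cells of both groups as p53+/+, and they were kept with LIF, the cytokine that maintains pluripotency, on a gelatin coating. The untreated group and the group given adriamycin (doxorubicin, which traps topoisomerase on DNA and breaks it) for 8 h each had 1 library, with the same antibody and the same batch entry; the untreated sample is labelled WT, whereas the genotype field of the treated sample holds its treatment and gives no genotype. No value here has a replicate, so each difference is between 2 libraries and no test was made. The data are peak lists, which hold no expression values, so the cell type could not be checked against marker genes.

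The lists give the authors' fold enrichment of each peak, the ratio of its summit to the local background, which serves only to rank peaks within a list. The number of fragments covering a summit (the pileup) was worked back from the fold and its p-value. Its median was 14 in both lists. The lowest local background, taken as the genome-wide one, was 1.19 fragments without and 1.03 fragments with adriamycin. Intervals are 95% intervals and cover counting error only. Coordinates are those of mm10, and exons and introns were not used.

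In untreated cells 1 of the 39 genes, Dvl1, had a gene-end peak (2.56%, exact Clopper-Pearson interval 0.0649 to 13.5%), against 5.78% of all protein-coding genes. With adriamycin 10 had one (25.6%, 13.0 to 42.1%), against 16.0%. They comprised 3 ligands (Wnt5b, Wnt6 and Wnt10a), the ligand carrier Wls, both co-receptors, the scaffold Axin1, Dvl1, the transcription factor Tcf7 and the R-spondin Rspo1. Dvl1 was therefore the member called in both lists (2.56% against 4.51% of all genes), 9 were called with adriamycin and not untreated (23.1%, 11.1 to 39.3%, against 11.5%), and 0 the other way round (at most 9.03%, against 1.27%). The background shares lie inside the members' intervals in each of these comparisons. With adriamycin, 3 of 19 ligands (15.8%, 3.38 to 39.6%) and 7 of 20 other members (35.0%, 15.4 to 59.2%) had a gene-end peak, with intervals that overlap and both hold the background share.

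**Figure D1:**
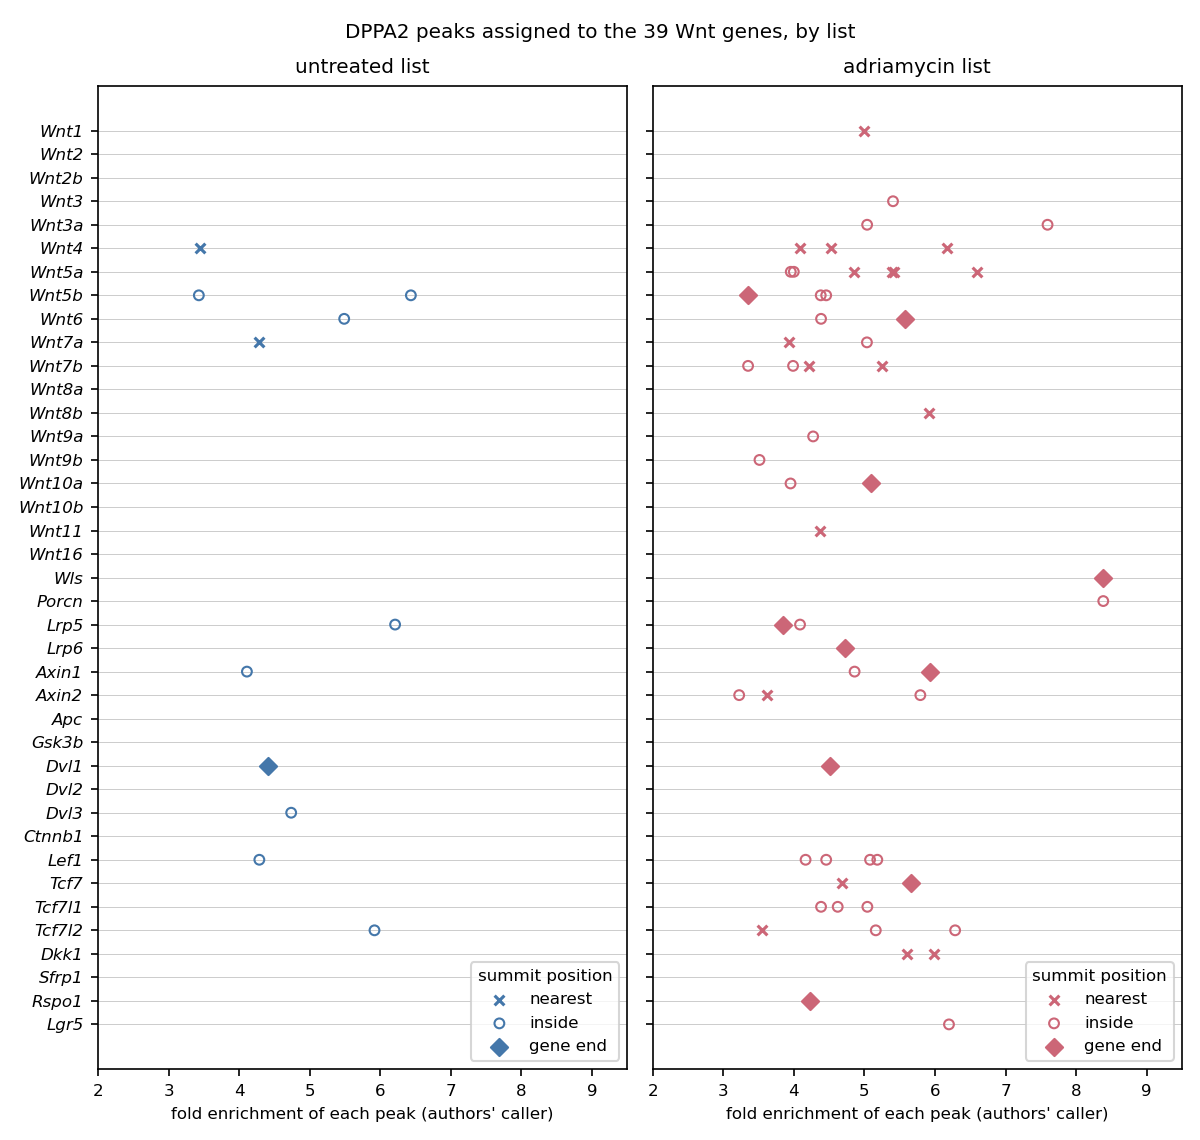
Fold enrichment (x axis) of each peak assigned to the 39 Wnt genes (y axis), untreated list on the left and adriamycin list on the right. Filled diamonds are gene-end peaks, open circles peaks inside a gene and crosses peaks for which the gene is the nearest; the adriamycin panel holds 10 diamonds, led by Wls at 8.38, and the untreated panel 1, at Dvl1.

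Among the ligands, the peak at Wnt6 was the deepest. Wnt6 (chr1:74754342-74785322) had 24 fragments at the summit (15.4 to 35.7) and a fold of 5.58 in the adriamycin peak at chr1:74784192-74784580, 941 bp inside the higher-coordinate end. The untreated list held a peak over the same place, chr1:74784099-74784648, with 26 fragments (17.0 to 38.1) and a fold of 5.49. Its summit lay 1051 bp from that end and so just outside the 1 kb window. By the 1 kb rule Wnt6 therefore counts as called with adriamycin alone, although the summits lie 110 bp apart, the peaks overlap and so do their pileup intervals. Wnt6 is on the plus strand, and its adriamycin summit lay 12489 bp past the annotated start at 74771892. This gene-end peak is therefore not at that start.

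Wnt10a, the neighbour of Wnt6 on chromosome 1 (chr1:74792019-74804176), had an adriamycin peak at chr1:74803134-74803611 with 22 fragments (13.8 to 33.3) and a fold of 5.09, 715 bp inside its higher-coordinate end. A weaker peak with a fold of 3.95 and 16 fragments lay 1445 bp inside the other end. No untreated summit came closer to an end of Wnt10a than 7748 bp. Wnt5b (chr6:119432531-119544824) had the weakest of the gene-end peaks, at chr6:119543830-119544144, with 11 fragments (5.49 to 19.7) and a fold of 3.35, rank 16031 of 16229. That summit also lay within 1 kb of an end of the protein-coding gene Gm52875. At the opposite end of Wnt5b both lists had a peak just beyond the window, 1194 bp from the end untreated (fold 6.43, 21 fragments, 13.0 to 32.1) and 1165 bp with adriamycin (fold 4.46, 13 fragments, 6.92 to 22.2). At this end of Wnt5b the pileup was thus higher in the untreated library, with overlapping intervals. At the other place where both lists had a Wnt5b peak, within Fbxl14, it was higher with adriamycin (16 fragments against 11), again with overlapping intervals.

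Both genes needed to secrete Wnt proteins carried an adriamycin peak with a fold of 8.38, rank 1067 of 16229, and both lacked an untreated peak. Of all genes, 30.2% had an adriamycin peak at an end or inside and 13.2% an untreated one. The intervals of these 2 genes (15.8 to 100% and 0 to 84.2%) hold those shares, so the counts do not set them apart. At Wls (chr3:159839650-159938666), which encodes the carrier of Wnt ligands, the peak at chr3:159939406-159939636 lay outside the gene, 817 bp beyond its higher-coordinate end, whereas transcription of Wls starts at the lower-coordinate end, at 159839650. At Porcn (chrX:8193846-8206548), which encodes the enzyme that adds the lipid, the peak at chrX:8203203-8203483 lay inside the gene, 3195 bp from an end. Each had 16 fragments (9.15 to 26.0) over the genome-wide background. The folds are equal because whole fragments over the same background give equal ratios, and 46 adriamycin peaks share these values. The nearest untreated summits were 164557 bp from an end of Wls and 351170 bp from an end of Porcn.

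Each co-receptor gene had an adriamycin peak at its higher-coordinate end and neither had an untreated peak there. With 2 genes the interval for a gene-end peak with adriamycin (15.8 to 100%) holds the 16.0% of all genes. The untreated interval (0 to 84.2%) holds their 5.78%. At Lrp6 (chr6:134446476-134566913) the peak at chr6:134566493-134566974 had its summit 47 bp from the end, the closest of all members, with 13 fragments (6.92 to 22.2) and a fold of 4.73. At Lrp5 (chr19:3584825-3686585) the peak at chr19:3686093-3686725 had 13 fragments and a fold of 3.85, rank 14926, and its summit lay within 1 kb of an end of the lncRNA gene Gm36672 as well. Further inside Lrp5 both lists had a peak at overlapping positions, with 18 fragments untreated (fold 6.21, 10.7 to 28.4) and 12 with adriamycin (fold 4.09, 6.20 to 21.0). The pileup intervals of that pair overlap.

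In the destruction complex, Axin1 was the gene with a gene-end peak, and in the Dishevelled family it was Dvl1. Axin1 (chr17:26131217-26195811), which encodes the limiting scaffold of the complex, had an adriamycin peak at chr17:26131325-26131558 with 15 fragments and a fold of 5.93, 199 bp inside the lower-coordinate end. At 7903 bp and 7587 bp from that end, both lists had a peak, with 11 fragments untreated (fold 4.11, 5.49 to 19.7) and 13 with adriamycin (fold 4.86, 6.92 to 22.2). Dvl1 (chr4:155847402-155859303) had its untreated summit 336 bp past the annotated start (14 fragments, 7.65 to 23.5, fold 4.41) and its adriamycin summit 171 bp past it (15 fragments, fold 4.52). The pileups of Dvl1 differed by 1 fragment between the libraries. Dvl3 (chr16:20516949-20534013) was the member with an untreated peak inside the gene (17 fragments, fold 4.74) and no adriamycin peak assigned to it.

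Of the TCF genes, Tcf7 (chr11:52246527-52283383) had a gene-end peak. It was an adriamycin peak at chr11:52283049-52283261 with 18 fragments (10.7 to 28.4) and a fold of 5.65, 205 bp inside the higher-coordinate end, where the gene starts. No untreated summit came within 50352 bp of an end of Tcf7 (the distance of the closest). Rspo1 (chr4:124986401-125009102), which encodes a secreted enhancer of Wnt signalling, had an adriamycin peak at chr4:124986520-124986865 with 16 fragments (9.15 to 26.0) and a fold of 4.23, 279 bp past its annotated start and inside the lncRNA gene Gm12930. The nearest untreated summit lay 72312 bp from an end of Rspo1.

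**Figure D2:**
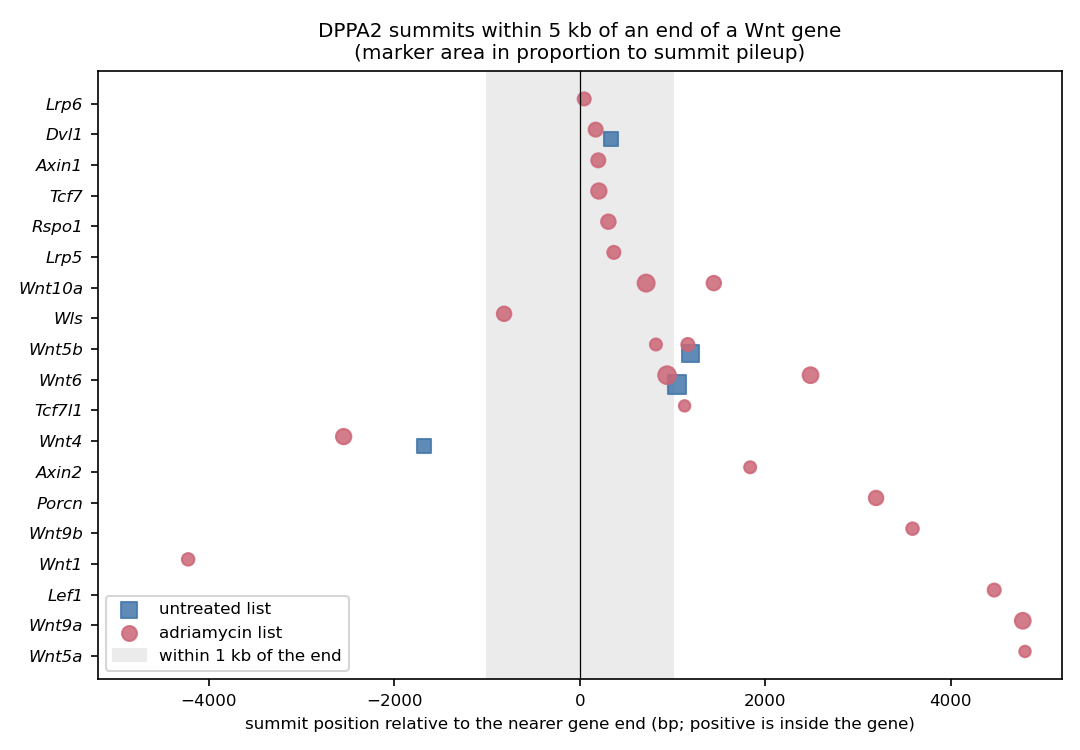
Position of each assigned summit within 5 kb of a gene end (x axis, bp, positive inside the gene) for the Wnt genes that have one (y axis), with squares for the untreated and circles for the adriamycin list and marker area in proportion to the summit pileup. The Wnt6 summits of the 2 lists sit 110 bp apart on either side of the edge of the shaded 1 kb band, at 941 bp and 1051 bp.

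Beside the 10 gene-end peaks, all of moderate depth (11 to 24 fragments), the lowest depth at which the untreated list did call a peak was read from its own entries. Among untreated peaks over a like local background (within 0.1 of the same multiple of the genome-wide value), the lowest pileup called was 7 fragments for the background of the Wls peak, 9 for Axin1, 10 for Lrp6, 12 for Tcf7, 13 for Rspo1 and 14 for Wnt6 and Wnt10a. For Lrp5 (13) and Wnt5b (11) it equalled the adriamycin pileup. These are the lowest pileups seen among called peaks, so the limit of calling itself may lie lower. Pileups were not scaled between the libraries here. The strongest 7043 adriamycin peaks by −log10 q, as many as the untreated list holds, kept 5 of the 10 members (Axin1, Tcf7, Wls, Wnt10a and Wnt6). That is 12.8% (4.30 to 27.4%), against 5.73% of all genes, beside 1 of 39 and 5.78% untreated.

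More members were reached by peaks inside or near the gene than by gene-end peaks. With a peak at an end or inside counted together, 8 of 39 members were called untreated (20.5%, 9.30 to 36.5%), against 13.2% of all genes, and 23 with adriamycin (59.0%, 42.1 to 74.4%), against 30.2%. The adriamycin background share lies under the members' interval. It also does at equal list length, where 12 members were called (30.8%, 17.0 to 47.6%), against 13.4% of all genes. Because the members were chosen with earlier results of these data known, these intervals describe the lists and are no test. Members are longer than most genes (median 32956 bp against 17169 bp), and a longer gene has more room for a summit. Among genes of 20 to 50 kb, 11 of 16 members had such an adriamycin peak (68.8%, 41.3 to 89.0%), against 34.8% of all genes of that length. Among genes of 50 kb or more 9 of 11 did (81.8%, 48.2 to 97.7%), against 59.5%, and under 20 kb 3 of 12 (25.0%, 5.49 to 57.2%), against 16.1%. The length classes were chosen after the data were seen.

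Per length of gene, adriamycin summits were denser in members. There were 38 adriamycin summits in 2.05 Mb of members, 18.5 per Mb (exact Poisson interval 13.1 to 25.4), against 8.51 per Mb over all protein-coding genes. In the untreated list there were 9, or 4.39 per Mb (2.01 to 8.33), against 3.18. With the adriamycin list shortened to 7043 peaks the density was 6.34 per Mb (3.38 to 10.8), against 3.23 per Mb. These density intervals count each summit as independent, although some members held several (in the full adriamycin list, Lef1 4 and Tcf7l1 3). Clustering within genes is therefore not covered. The members were also chosen with earlier results of these data known, so no interval here is a test. Counted by distance from a gene end, inside or outside the gene, 20 members had an adriamycin summit within 5 kb of an end (51.3%, 34.8 to 67.6%), against 25.8% of all genes, and 30 within 20 kb (76.9%, 60.7 to 88.9%), against 45.8%. At equal list length 12 members had one within 20 kb (30.8%, 17.0 to 47.6%), against 20.9% of all genes, a share that lies inside the members' interval. In the untreated list the shares within 20 kb were alike, 9 members (23.1%, 11.1 to 39.3%) against 20.5%.

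**Figure D3:**
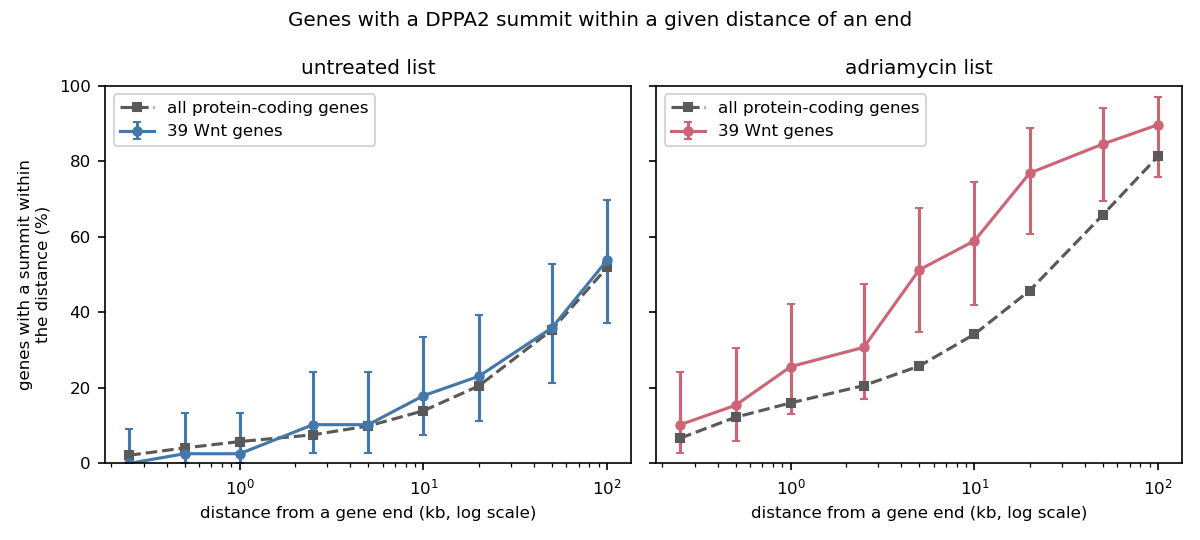
Percent of genes (y axis) with a summit within a given distance of a gene end (x axis, kb, log scale), in the untreated list on the left and the adriamycin list on the right. Coloured points are the 39 Wnt genes with 95% Clopper-Pearson intervals and grey squares are all protein-coding genes; in the adriamycin panel the points stand at 76.9% against 45.8% at 20 kb.

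The TCF genes held many of the inside peaks. Lef1, which encodes a partner of beta-catenin (chr3:131110297-131224357), had 4 adriamycin peaks inside, with folds from 4.17 to 5.18, and 1 untreated peak (fold 4.29, 14 fragments) that overlapped the adriamycin peak at chr3:131178645-131179202 (fold 5.08, 18 fragments). Tcf7l1 (chr6:72626371-72789045), the main TCF repressor of embryonic stem cells, had 3 adriamycin peaks of 9 to 11 fragments, the first 1130 bp from an end and so just outside the gene-end window. Its nearest untreated summit was 2005761 bp from an end, the farthest among members. Tcf7l2 (chr19:55741797-55933659) had an adriamycin peak at chr19:55759178-55759491 with 21 fragments (13.0 to 32.1, fold 6.29) over an untreated peak of 19 fragments (11.4 to 29.7, fold 5.92), and a further adriamycin peak with a fold of 5.16. With Tcf7, 4 of 4 TCF genes had an adriamycin peak at an end or inside (39.8 to 100%), and Lef1 and Tcf7l2 an untreated one. Lef1, Tcf7l1 and Tcf7l2 are longer than 50 kb, and of all genes of that length 59.5% had such a peak with adriamycin and 30.4% untreated, so the count does not set the TCF genes apart.

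Of the ligands, 10 of 19 had an adriamycin peak at an end or inside (52.6%, 28.9 to 75.6%), against 30.2% of all genes, and 2, Wnt5b and Wnt6, an untreated one (10.5%, 1.30 to 33.1%), against 13.2%. Both background shares lie inside the ligands' intervals. Wnt3a, used to keep stem cells self-renewing in culture (chr11:59248036-59290751), had the deepest of the members' inside peaks in the adriamycin list, at chr11:59284111-59284387 with 23 fragments (14.6 to 34.5) and a fold of 7.59, 6518 bp past its start, and a second with a fold of 5.04. Wnt3 (chr11:103774175-103818021), needed for the primitive streak, had a peak with a fold of 5.41 and 15 fragments. Wnt5a, a ligand of non-canonical signalling, had 6 assigned adriamycin peaks, the most of any member: 2 inside with 11 and 10 fragments, and 4 nearest ones, of which the strongest (fold 6.59, 16 fragments) lay 5602 bp beyond an end. The other nearest ones lay 82922 to 93491 bp beyond the same end, with 9 or 10 fragments. Wnt7a, Wnt7b, Wnt9a and Wnt9b had inside peaks with folds from 3.35 to 5.04. None of Wnt3, Wnt3a, Wnt5a, Wnt7b, Wnt9a and Wnt9b had an untreated peak assigned to it.

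Among the remaining members, Axin2, a feedback inhibitor and standard Wnt target gene (chr11:108917828-108950783), had adriamycin peaks of folds 5.79 and 3.23 inside the gene, the second 1837 bp from an end. Lgr5, an R-spondin receptor of stem cells (chr10:115450314-115587780), had 1 with a fold of 6.20 and 14 fragments, 51606 bp from an end. Wnt1, Wnt4, Wnt8b, Wnt11 and Dkk1 had only adriamycin peaks outside protein-coding genes, with folds from 4.09 to 6.16, and Wnt4 also had an untreated one (fold 3.45) 1679 bp from an end. No adriamycin peak was assigned to 11 members: Wnt2, Wnt2b, Wnt8a, Wnt10b, Wnt16, Apc, Gsk3b, Dvl2, Dvl3, Ctnnb1 and Sfrp1. The nearest adriamycin summit to an end of Ctnnb1 (chr9:120933400-120960507) was 21909 bp away, that to Apc (chr18:34220297-34322190) 184241 bp and that to Gsk3b (chr16:38089001-38246084) 8152 bp. Beta-catenin and 2 of the 4 destruction complex genes had no assigned peak in either list. Most genes lack a peak at an end or inside. Of all protein-coding genes, 30.2% had one with adriamycin and 13.2% untreated. These shares leave out nearest peaks. The share of all genes without an assigned peak of any class was not computed, so whether these absences set the members apart is not known.

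Few member peaks of the adriamycin list stood over an untreated peak. Of the 57, 9 overlapped an untreated peak by at least 1 bp (15.8%, 7.48 to 27.9%), against 34.4% of the whole list. The share of the whole list lies above the members' interval. By class, 2 of 10 gene-end peaks (2.52 to 55.6%) and 6 of 29 inside peaks (7.99 to 39.7%) did, with intervals that hold 34.4%. Outside protein-coding genes 1 of 18 did (0.141 to 27.3%), an interval that lies under 34.4%. The whole list was not split by class. These intervals count each peak as independent, although some members held several. Of the 11 untreated member peaks 9 overlapped an adriamycin peak (81.8%, 48.2 to 97.7%), against 79.7%. The 9 overlapping pairs lay at Wnt5b (a pair at each of 2 places), Wnt6, Wnt7a, Lrp5, Axin1, Dvl1, Lef1 and Tcf7l2. At all of these the pileup intervals of the 2 libraries overlapped. Scaled to each library's genome-wide background, the ratio of adriamycin to untreated pileup ran from 0.718 (Wnt5b, at its lower-coordinate end) and 0.774 (Lrp5) to 1.49 (Lef1) and 1.69 (Wnt5b, within Fbxl14). The ratio was below 1 at the lower-coordinate end of Wnt5b, at Lrp5 and at Wnt7a (0.967), and above 1 at the other pairs. At Wnt6 the order depended on the scaling, with 24 fragments against 26 untreated and a scaled ratio of 1.07. Adriamycin member peaks as a group were somewhat weaker than their list, with a median fold of 4.73 against 5.10 for the whole list. Of the 57, 18 were among the strongest 7043 of the 16229 peaks by −log10 q. Ranks by fold ran from 1067, at Wls and Porcn, to 16117, at Axin2. Whether this lower strength goes with the low share of overlaps was not tested.

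Sequence was at hand for the gene starts, in windows of 250 bases before to 50 after the annotated start (RefSeq, GRCm38.p6), which matched 28 of the 39 members by symbol. The stretches below show the starts the results turn on, 5′ to 3′ on the strand of the gene. For Tcf7 the letters run from an ATG 1 bp from the peak summit to the end of the window (chr11:52282965-52283179, minus strand), with the part under the peak in capitals. The frame from that ATG stays open over all 71 codons of the stretch, and the whole peak of 213 bp holds 35 CpG.

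Tcf7: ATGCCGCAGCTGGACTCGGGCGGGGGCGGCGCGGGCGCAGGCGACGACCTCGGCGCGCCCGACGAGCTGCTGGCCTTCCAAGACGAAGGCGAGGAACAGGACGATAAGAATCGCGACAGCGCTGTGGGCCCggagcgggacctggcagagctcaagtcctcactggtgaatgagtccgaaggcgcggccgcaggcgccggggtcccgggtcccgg

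For the others the 250 bases before the start are given, with each CpG in capitals. Dvl1 (chr4:155847152-155847401, plus strand) and Rspo1 (chr4:124986180-124986429, plus strand) had an adriamycin summit within 1 kb of this start, and Ctnnb1 (chr9:120933150-120933399, plus strand), Wnt3a (chr11:59290752-59291001, minus strand) and Wls (chr3:159839400-159839649, plus strand) had none there.

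Dvl1: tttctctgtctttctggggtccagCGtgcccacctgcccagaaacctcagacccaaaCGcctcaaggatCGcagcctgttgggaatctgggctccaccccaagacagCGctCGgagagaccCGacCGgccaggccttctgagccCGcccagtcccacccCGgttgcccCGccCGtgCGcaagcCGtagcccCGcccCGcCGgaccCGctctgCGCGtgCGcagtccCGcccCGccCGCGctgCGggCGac
Rspo1: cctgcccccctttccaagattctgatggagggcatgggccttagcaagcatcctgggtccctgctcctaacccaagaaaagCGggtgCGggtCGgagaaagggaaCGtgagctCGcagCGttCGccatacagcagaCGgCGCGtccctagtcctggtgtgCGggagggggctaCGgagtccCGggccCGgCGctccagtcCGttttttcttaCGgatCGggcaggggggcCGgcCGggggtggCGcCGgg
Ctnnb1: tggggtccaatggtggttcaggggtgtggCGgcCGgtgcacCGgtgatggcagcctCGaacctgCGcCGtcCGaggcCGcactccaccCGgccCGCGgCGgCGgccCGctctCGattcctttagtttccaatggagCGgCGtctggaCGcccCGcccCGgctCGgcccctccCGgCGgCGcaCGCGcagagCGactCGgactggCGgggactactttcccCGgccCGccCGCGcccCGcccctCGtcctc
Wnt3a: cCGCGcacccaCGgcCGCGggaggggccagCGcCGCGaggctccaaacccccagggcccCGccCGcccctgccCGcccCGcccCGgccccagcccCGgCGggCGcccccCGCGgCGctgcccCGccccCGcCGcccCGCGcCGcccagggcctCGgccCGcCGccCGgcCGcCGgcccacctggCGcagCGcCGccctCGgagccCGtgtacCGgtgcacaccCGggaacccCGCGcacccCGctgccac
Wls: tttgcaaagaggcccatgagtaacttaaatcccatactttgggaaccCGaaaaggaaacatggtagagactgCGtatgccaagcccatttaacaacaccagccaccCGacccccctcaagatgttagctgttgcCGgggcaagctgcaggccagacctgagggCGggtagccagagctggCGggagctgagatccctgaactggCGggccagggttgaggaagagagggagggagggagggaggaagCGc

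These stretches hold 26 CpG at Dvl1, 22 at Rspo1, 35 at Ctnnb1, 41 at Wnt3a and 8 at Wls. The starts of Ctnnb1 and Wnt3a, without a summit, are thus richer in CpG than those of Dvl1 and Rspo1, and the CpG-poor start of Wls lies 99833 bp from the summit at the other end of the gene. These are chosen examples. Tcf7 and Wnt5b, which also had an adriamycin summit at a start, hold 45 and 47 CpG in the 300 bp window. Over the 28 members with a window, the median was 40 CpG with such a summit and 29.5 without.

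Over all 17492 protein-coding genes with a window, peaks at the start were more common with more CpG. An adriamycin summit lay within 1 kb of a start in 3.99% of genes with 0 to 9 CpG in the 300 bp window, 14.6% with 10 to 19, 19.9% with 20 to 29, 34.2% with 30 to 39 and 52.2% with 40 or more. The Wnt genes are CpG-rich, with a median of 30.5 CpG against 15 (the highest of a gene's windows counted). Of these, 4 of 28 had an adriamycin summit at a start (14.3%, 4.03 to 32.7%), namely Dvl1, Rspo1, Tcf7 and Wnt5b, against 15.8%. The 11 members without a window, among them Lrp5, Lrp6, Axin1 and Wnt10a with their gene-end peaks, could not be counted here. With 30 or more CpG 3 of 15 did (20%, 4.33 to 48.1%), against 40.2% of all such genes, a share that lies inside the members' interval. The motif ATCAAAG, the core bound by TCF factors, was searched on both strands in windows of 300 bp and was found in 2 of 37 member windows (5.41%), of Wnt5b and Wnt11, against 3.22% of the 21263 windows of all these genes. The Wnt5b window with the motif belongs to the start at 119449386, 15690 bp from the nearest adriamycin summit. The window of the Wnt5b start beside the gene-end peak, at 119544347, lacks it.

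**Figure D4:**
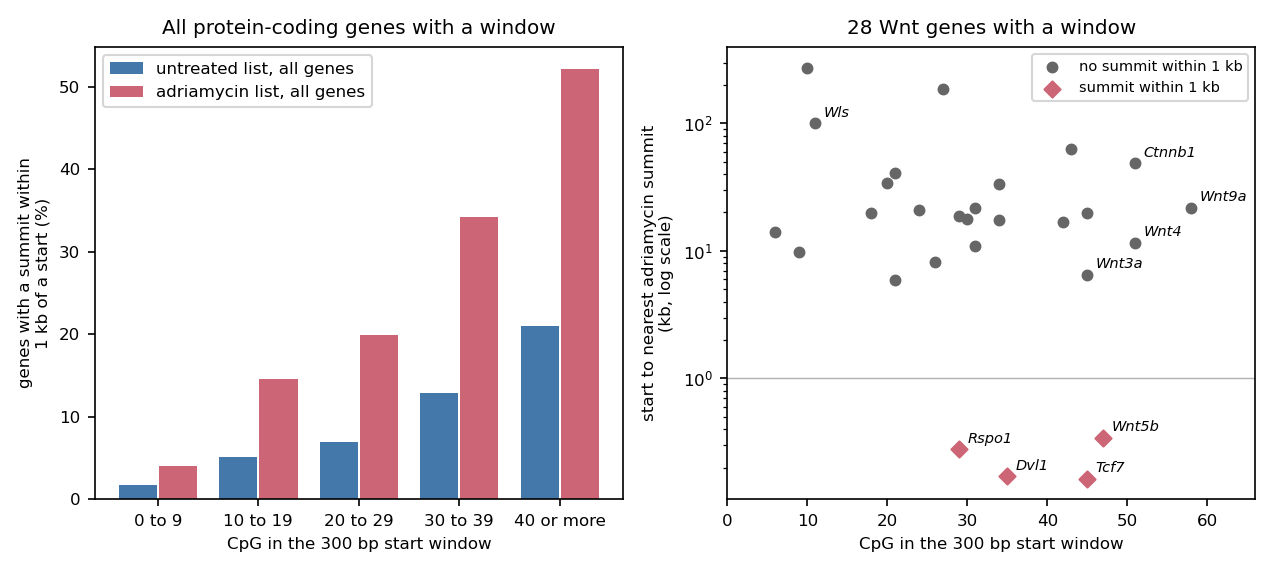
Left: percent of all protein-coding genes with a summit within 1 kb of an annotated start (y axis), by the number of CpG in the start window (x axis), with blue bars for the untreated and red bars for the adriamycin list. Right: distance from the start to the nearest adriamycin summit (y axis, kb, log scale) against CpG (x axis) for the 28 Wnt genes with a window; Dvl1, Rspo1, Tcf7 and Wnt5b lie under the 1 kb line.

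Other genes of the pathway, in lists chosen with earlier results of these data known, differed widely in their share of gene-end peaks. The Frizzled receptors, which bind the ligands, had 7 of 10 with adriamycin (70.0%, 34.8 to 93.3%) and 3 of 10 untreated (Fzd3, Fzd8 and Fzd9), with an adriamycin interval that overlaps that of the 39 members (13.0 to 42.1%). Of 11 non-canonical receptors and polarity genes, 6 were called with adriamycin (Celsr2, Prickle1, Ror2, Ryk, Vangl1 and Vangl2) and Ror2 and Vangl1 also untreated. Prickle1 had a fold of 6.13 and 18 fragments, and Ror2, a Wnt5a receptor, folds of 4.46 untreated and 5.21 with adriamycin. The 20 extracellular regulators had 2 with adriamycin (10.0%, 1.23 to 31.7%), Lgr4 and Notum, of which Lgr4, an R-spondin receptor, was also called untreated (folds of 5.23 untreated and 6.13 with adriamycin).

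Of 15 cytoplasmic regulators 4 were called with adriamycin (Btrc, Dact1, Nkd2 and Tnks2, with folds from 4.23 to 5.91) and Apc2 untreated. Of 9 nuclear cofactors 3 were called with adriamycin (Bcl9l, Pygo1 and Tle1). Pygo1, a beta-catenin coactivator, was called in both lists, with folds of 4.71 untreated and 6.36 with adriamycin. Of 8 known target genes, Sp5 alone was called with adriamycin (fold 3.85, 956 bp from an end), and 0 untreated. Together the other lists had 23 of 73 genes with a gene-end peak with adriamycin (31.5%, 21.1 to 43.4%) and 8 untreated (11.0%, 4.85 to 20.5%), against 16.0% and 5.78% of all genes.

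**Figure D5:**
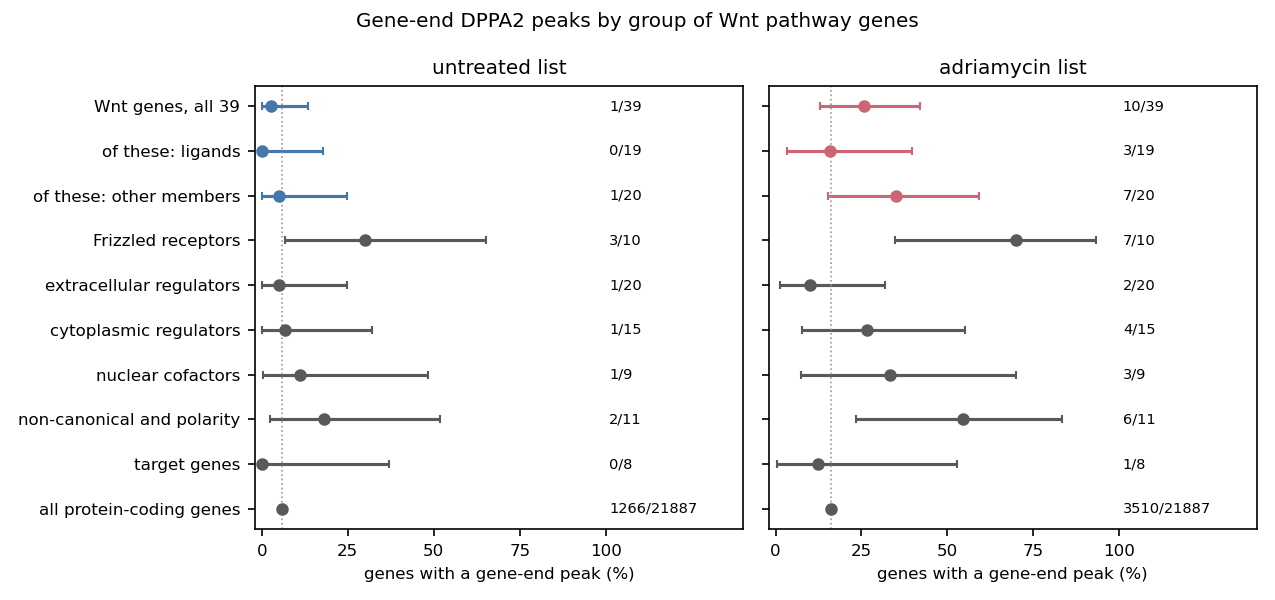
Percent of genes with a gene-end peak (x axis) in each group of Wnt pathway genes (y axis), untreated list on the left and adriamycin list on the right. Points carry 95% Clopper-Pearson intervals, the numbers at the right edge are genes called over genes in the group, and the dotted line is the share of all protein-coding genes (5.78% and 16.0%).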

How the data were processed

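DPPA2 ChIP-seq peak lists of 1 untreated and 1 adriamycin library were used, grouped from the sample labels (treatment for the first, title for the second). Per the submitters' processing notes the authors used MACS3 3.0.0b1, deepTools 3.5.1, SAMtools, Bowtie2 2.5.1 and FastQC 0.12.1 with mm10. Whether an input control entered the calling, and with which command and filters, is not given in the sources used here. Lists were called per library. The deposited values are a fold enrichment, a ratio that is not scaled between libraries, the authors' −log10 p and −log10 q, a score that equals −log10 q times 10 without its decimals (in 99.97% of untreated and all adriamycin entries), and the summit's distance in bp from the peak start.

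Only peaks of the autosomes, X and Y were used (126 untreated and 142 adriamycin peaks left out). Pileups were recovered as the whole number that gives both the fold, with a pseudocount of 1, and −log10 p within 0.001 by a Poisson tail, for 99.86% of untreated and 99.94% of adriamycin peaks; recovery and gene assignment were tested on simulated data. Genes and starts came from RefSeq tables of GRCm38.p6, the build of mm10, in which the start window's letters agreed in orientation for 967 of 967 overlapping pairs on the minus strand. The summit is the peak start plus its offset. Every member is accounted for. Members with a gene-end or inside peak and a fixed set of the others were named. The members and lists were chosen with earlier results of these data known. CpG classes and gene length classes were chosen after the data were seen. Alternatives were other windows, stricter peaks, equal list length, starts only, low local background, stricter overlap and all gene types. Python 3.11.15, numpy 2.4.6, pandas 2.3.3, scipy 1.17.1 and matplotlib 3.10.9 were used.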

Additional observations from a re-analysis of the deposited data

How the results depend on the processing

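Without replicates, precision is limited by pileups of 9 to 26 fragments. No paired analysis was possible because each group has 1 library and no result comes from a test. The number of members called at a gene end with adriamycin (10) was 6 with a window of 500 bp, 12 with 2500 bp and 20 with 5000 bp, 5 each with −log10 q of at least 5, with a fold of at least 5 and with equal list length, and 4 of 28 with annotated starts alone. For untreated cells it (1) was 1 with 500 bp, 4 with 2500 bp and with 5000 bp, and 0 with −log10 q or fold of at least 5. Members called in both lists (1) were 3 with 2500 bp, 4 with 5000 bp and 0 with −log10 q of at least 5, fold of at least 5 or equal list length. The share of all genes was 4.08% untreated and 12.2% with adriamycin at 500 bp, where 15.4% of members (5.86 to 30.5%) had an adriamycin peak. At 2500 bp it was 7.57% and 20.6%, the latter beside 30.8% of members (17.0 to 47.6%). The share of all genes was 9.90% untreated and 25.8% with adriamycin at 5000 bp, 2.10% and 7.12% with −log10 q of at least 5, 2.14% and 6.94% with a fold of at least 5, and 5.73% with adriamycin at equal list length. The shares of members kept their order against all genes in the adriamycin list, save with starts alone (14.3% against 15.8%). Starts alone leave out the 11 members without a window, among them Lrp5, Lrp6, Axin1 and Wnt10a, which had a gene-end peak. Wnt6 and Wls have a window, but their gene-end peaks lie at the end away from the annotated start. In the untreated list the order turned at 2500 bp (10.3% against 7.57%) and 5000 bp (10.3% against 9.90%). Alternatives added after seeing the data gave, with equal list length, 12 members with an adriamycin peak at an end or inside (30.8% against 13.4% of all genes), 6.34 summits per Mb (against 3.23) and 12 members with a summit within 20 kb (30.8%, 17.0 to 47.6%, against 20.9%, which lies inside that interval). With −log10 q of at least 5 these were 13 (33.3% against 15.9%), 7.31 (against 3.96) and 16 (41.0% against 24.9%) with adriamycin, and 5 (12.8% against 6.14%), 2.44 (against 1.40) and 5 (12.8% against 9.11%) untreated. Leaving out peaks of high local background, asking for an overlap of 50% of the shorter peak, taking the summit nearest to the end, or letting any RefSeq gene be the nearest (46 adriamycin peaks assigned in place of 57) kept each count within 1.5 times. The causes of these shifts were not tested.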
